A study of Homo sapiens with 6 samples.

Results

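The transcripts of P-TEFb, of its inhibitory 7SK snRNP and of the BET proteins BRD2 and BRD3 were examined in H9 cells upon CDK9 antagonism. Members were the rows of the count table named CDK9, CCNT1, CCNT2, HEXIM1, HEXIM2, LARP7, MEPCE, BRD2 or BRD3, which gave 9 of 61541 genes. H9 is an established line of T-cell lymphoma cells, a clonal derivative of the cutaneous T-cell lymphoma line HUT 78, labelled as WT. The 3 control libraries were from cells treated with DMSO, the vehicle, and the 3 treated libraries from cells exposed to AZD4573, a selective CDK9 inhibitor (50 nM), for 4 h. No exposure time is labelled for DMSO, and nothing in the labels says whether the replicates were separate cultures, so that p-values measure the spread between these libraries, which may be technical.

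P-TEFb is the kinase CDK9 bound to cyclin T1 or cyclin T2, and by phosphorylating RNA polymerase II (RNAP2) and the factors that hold it near the start site, it releases paused polymerase into elongation. A large share of the kinase in cells is held inactive in the 7SK snRNP, in which the 7SK RNA, capped by MEPCE and bound at its 3′ end by LARP7, carries HEXIM1 or HEXIM2, the subunits that block the kinase. BET proteins bind acetylated histones through their bromodomains, and the family includes proteins through which active P-TEFb is brought to chromatin.

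The values are counts per gene estimated by the authors with RSEM, and the total per library ranged from 70367303 to 76571157 counts with DMSO and from 52101868 to 63795185 with AZD4573. Levels are given as CPM (the counts-per-million scale, with library totals corrected by the TMM method of edgeR), with SD over 3 libraries. Counts of overlapping genes are given uncorrected for these totals, which were lower with AZD4573. Fold changes and adjusted p-values are from edgeR's quasi-likelihood test over the 17678 genes that passed its filter on low counts, all 9 members among them. Of 8 T-cell markers, CD3D, CD3E, CD3G, CD5 and TRAC were each at 55.2 CPM or more in each library, CD4 was at 3.61 to 7.35 CPM, and CD2 and CD7 were below 1 CPM throughout, and the summed level of all 8 was 629 to 653 CPM with DMSO and 864 to 900 CPM with AZD4573. Of 4 B-cell markers, CD79A was at 55.0 to 60.9 CPM with DMSO and 88.5 to 98.4 CPM with AZD4573, and the other 3 were below 1 CPM. Of 4 epithelial, fibroblast and endothelial markers, EPCAM was at 149 to 167 CPM with DMSO and 132 to 136 CPM with AZD4573, COL1A1 was at 4.98 to 7.39 and 3.54 to 4.36 CPM, and the other 2 were below 1 CPM, as were all 4 myeloid markers. The part of these differences in the results was not tested.

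With TMM, the transcripts of P-TEFb and those for the proteins of its inhibitory complex moved in opposite directions upon AZD4573 treatment. Protein levels were not measured in these libraries. CDK9, CCNT1 and CCNT2 were each higher, HEXIM1, HEXIM2, LARP7 and MEPCE were each lower, and the BET genes were split, with BRD2 lower and BRD3 slightly higher when scaled by TMM but lower when scaled to mitochondrial mRNAs. At an adjusted p under 0.05, 5 of the 9 members were lower, where 37.4% of all tested genes were, and 4 were higher, where 37.3% of all tested genes were. All 9 members are protein-coding, and of the 13423 protein-coding genes tested, 44.3% were lower and 35.8% higher. With a fold change of at least 1.5 also required, 3 members were lower (background 23.7%) and 3 higher (background 22.7%). The groups did not overlap for any of the 9 members (background 38.7% lower and 39.0% higher). Calls were thus frequent among all genes, and the counts of members are not far from these backgrounds. With libraries scaled to the mitochondrial mRNAs, 6 members were lower (background 67.2%) and 2 higher (background 12.1%), and at a fold change of at least 1.5 the counts were 6 lower (background 53.4%) and 0 higher (background 10.0%), so that none of CDK9, CCNT1 and CCNT2 reached that fold. BRD2 also passed the fold threshold, for 4 lower members, with library size only, without a filter and without DMSO replicate 1. Changes with TMM are relative to the corrected total of each library. In bulk RNA a loss of expressing cells and a loss of RNA per cell cannot be told apart.

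**Figure D1:**
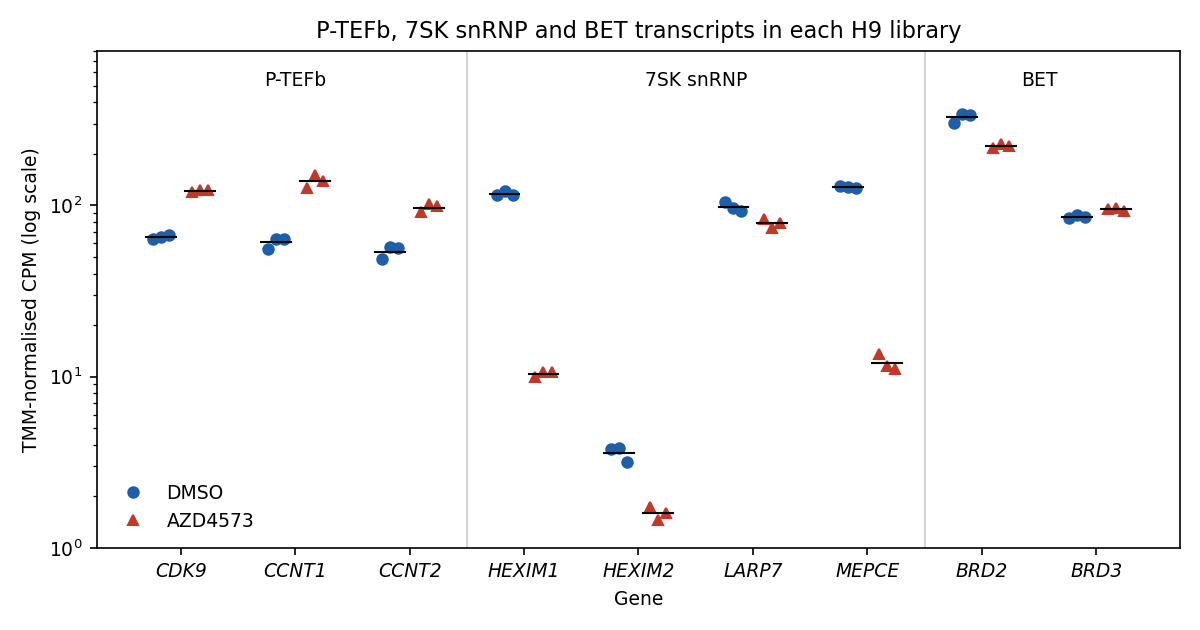
Each point is the TMM-normalised CPM of a gene in a single library (log axis), with DMSO as blue circles, AZD4573 as red triangles and group means as black lines. HEXIM1 and MEPCE dropped from at least 114 CPM to at most 13.6 CPM, while CDK9, CCNT1 and CCNT2 rose in each AZD4573 library.

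CDK9 (ENSG00000136807, the catalytic subunit and the target of the drug) was at 64.0, 65.3 and 67.1 CPM in the DMSO libraries and at 120.5, 122 and 123 CPM in the AZD4573 libraries. The libraries of each group lay close together and far from those of the other group. This was a rise from 65.4 ± 1.55 to 122 ± 1.32 CPM (SD, n = 3), with a log2 fold change of 0.90 (standard error 0.0425, edgeR adjusted p = 5.8e-10). A rise of this size was common, as CDK9 ranked only 3025 from the highest of the 17678 tested genes. AZD4573 inhibits the activity of the kinase, which was not measured here, and the CDK9 transcript is no check of it. CDK9 lies on the plus strand of chromosome 9 of GRCh38 from 127785679 to 127790792, with 7 exons in its canonical transcript.

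CCNT1 (ENSG00000129315), which encodes cyclin T1, the regulatory subunit of most P-TEFb, was at 55.4, 63.7 and 63.2 CPM with DMSO and at 127, 150.1 and 139.6 CPM with AZD4573. It showed the largest rise of the 9 members, and each treated library lay well above the 3 controls. The change was 1.19 on the log2 scale (standard error 0.0672, edgeR adjusted p = 2.6e-09), which ranked 2252 from the highest of all tested genes. CCNT2 (ENSG00000082258), which encodes the paralog cyclin T2, was at 48.4, 56.8 and 56.0 CPM with DMSO and at 90.9, 101 and 98.7 CPM with AZD4573, again without overlap. Its log2 fold change was 0.85 (standard error 0.0645, edgeR adjusted p = 4.5e-08), which ranked 3187 from the highest. CCNT1 lies on the minus strand of chromosome 12 (48688458 to 48716998) and CCNT2 on the plus strand of chromosome 2 (134918235 to 134959342), each with 9 exons. The antisense RNA CCNT2-AS1, which shares 150 of the 9081 exon bases of CCNT2, went the other way, from 339 to 451 counts with DMSO to 134 to 188 counts with AZD4573.

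The rise of the P-TEFb transcripts depended in size on the scaling, whereas its sign did not. Mitochondrial mRNAs, which are made by another polymerase than RNAP2, took 3.13% ± 0.0930 of the counts with DMSO and 4.85% ± 0.162 with AZD4573 (SD, n = 3). With libraries scaled to the 13 mitochondrial mRNAs, the median over all genes was -0.71 on the log2 scale, where it was 0.03 with TMM. Under this scaling CCNT1 remained higher by 0.45 on the log2 scale (edgeR adjusted p = 8.8e-06) and CDK9 by 0.16 (edgeR adjusted p = 0.022), and the value of CCNT2 was 0.11 (edgeR adjusted p = 0.14), which no longer passed the test. Relative to the median of all genes, the difference was 0.87 for CDK9, 1.17 for CCNT1 and 0.83 for CCNT2 with TMM, values that a change of scaling leaves nearly as they are by construction, since it moves all genes alike. Where the set of genes changed, they were 0.74, 1.04 and 0.70 without a filter on low counts. Which scaling describes the amount of RNA per cell was not tested.

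HEXIM1 (ENSG00000186834), the inhibitor that holds P-TEFb within the 7SK snRNP, was at 114, 122 and 115 CPM in the DMSO libraries and at 9.98, 10.6 and 10.6 CPM in the AZD4573 libraries. Each control library lay more than 10-fold above each treated library. HEXIM1 fell with a log2 fold change of -3.49 (standard error 0.0555, edgeR adjusted p = 3.8e-13), an 11.3-fold drop, which ranked 54 from the lowest of the 17678 tested genes. HEXIM1 has a single exon of 3625 bases on the plus strand of chromosome 17 (45148475 to 45152099), of which 520 bases lie opposite the antisense RNA HEXIM2-AS1. That RNA had 52 to 60 counts with DMSO and 78 to 95 with AZD4573, against 8494 to 8961 and 508 to 649 counts of HEXIM1.

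MEPCE (ENSG00000146834), the enzyme that places a methyl cap on the 5′ end of 7SK RNA, was at 129, 128 and 127 CPM with DMSO and at 13.6, 11.5 and 11.1 CPM with AZD4573. The fall was as clear as that of HEXIM1, with the 3 controls almost equal. Its log2 fold change was -3.41 (standard error 0.0672, edgeR adjusted p = 1.2e-12), a 10.6-fold drop, which ranked 65 from the lowest. MEPCE lies on the plus strand of chromosome 7 (100428322 to 100434126), with 4 exons in its canonical transcript, and shares 203 of its 3372 exon bases with ZCWPW1 on the opposite strand. ZCWPW1 had 773 to 877 counts with DMSO and 785 to 950 with AZD4573, not corrected for the lower totals of the AZD4573 libraries. A further 2067 of these bases are also annotated to ENSG00000289690 on the same strand, a gene that is not among the rows analysed here.

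HEXIM2 (ENSG00000168517), the paralog that can take the place of HEXIM1, was at a low level, 3.76, 3.85 and 3.16 CPM with DMSO and 1.73, 1.46 and 1.59 CPM with AZD4573. All treated libraries were below all controls, with 233 to 295 counts in the controls and 83 to 97 counts after treatment. Its change was -1.18 on the log2 scale (standard error 0.146, edgeR adjusted p = 6.6e-06). HEXIM2 starts 8601 bases beyond the end of HEXIM1 on the same strand (chromosome 17, 45160700 to 45170040). Antisense RNAs cover 1593 of its 2008 exon bases, namely HEXIM2-AS1 and ENSG00000267288, and reads counted without regard to strand cannot be assigned between them with certainty. HEXIM2-AS1 had 52, 60 and 55 counts with DMSO, against 295, 282 and 233 of HEXIM2, but 78, 95 and 77 counts with AZD4573, about as many as HEXIM2 itself (88, 83 and 97) and more in replicate 2. ENSG00000267288 had 10 to 16 counts with DMSO and 19 to 45 with AZD4573, and the fold change of HEXIM2 is uncertain to that extent.

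LARP7 (ENSG00000174720), the La-related protein that stabilises 7SK RNA, was at 104, 96.0 and 93.2 CPM with DMSO and at 83.5, 74.2 and 78.6 CPM with AZD4573. The groups were separated, but by far less than those of HEXIM1 and MEPCE. LARP7 fell with a log2 fold change of -0.31 (standard error 0.0561, edgeR adjusted p = 0.00019), which is a 1.24-fold drop and is below the fold threshold of 1.5. LARP7 lies on the plus strand of chromosome 4 (112637077 to 112657696), with 13 exons in its canonical transcript. Its 4 processed pseudogenes had no counts in any library. Under the mitochondrial scaling, the log2 fold changes were -4.23 for HEXIM1, -4.14 for MEPCE, -1.91 for HEXIM2 and -1.05 for LARP7.

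The RNA scaffold of the complex, RN7SK (ENSG00000283293), has no poly(A) tail and was at a low level, 1.54, 2.62 and 4.40 CPM with DMSO and 5.52, 6.79 and 6.21 CPM with AZD4573. The 3 control libraries differed widely among themselves, and the highest of them lay just below the treated libraries. RN7SK had a log2 fold change of 1.12 (standard error 0.259, edgeR adjusted p = 0.0015), and 0.38 (edgeR adjusted p = 0.141) when scaled to the mitochondrial mRNAs. These counts describe RNA that passed the poly(A) selection given in the labels, and reads may be shared with the many pseudogenes of 7SK, so that they do not give the level of 7SK RNA in the cells.

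**Figure D2:**
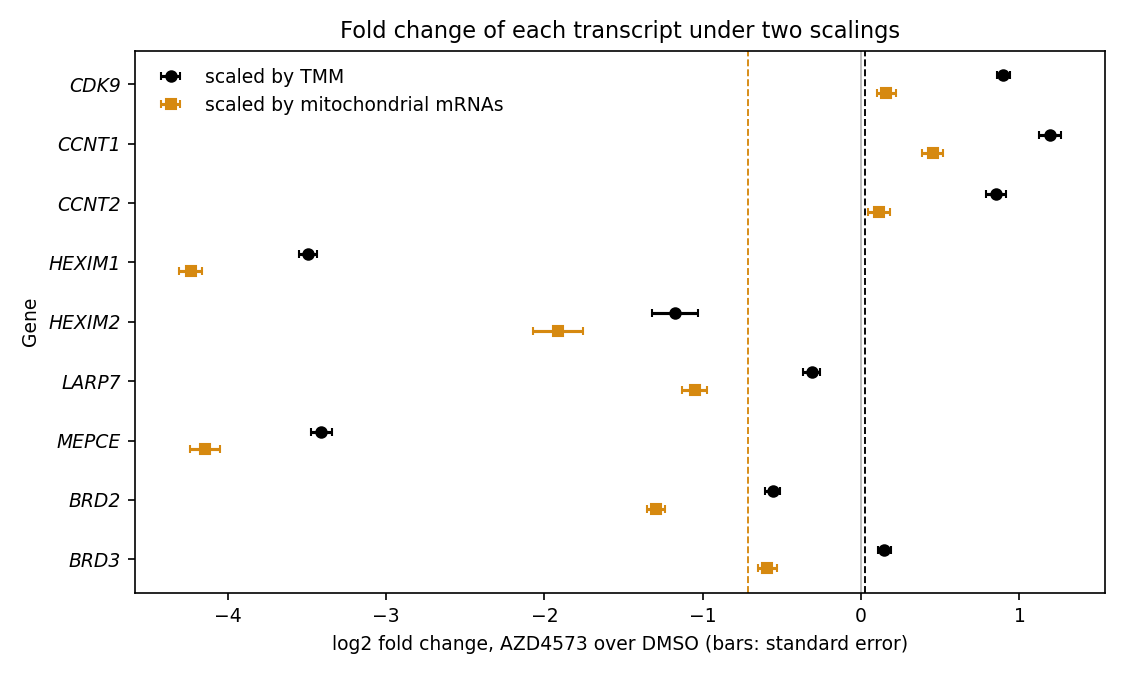
Log2 fold change (AZD4573 over DMSO) with its standard error for each member, scaled by TMM (black circles) or to the 13 mitochondrial mRNAs (orange squares), with dashed lines at the medians of all tested genes (0.03 and -0.71). HEXIM1 and MEPCE stood far to the left and the P-TEFb genes to the right of the dashed line under both scalings. A change of scaling moves all genes and their median alike, so that these positions are nearly kept by construction. BRD3 stood 0.12 to the right of its dashed line under both, although its fold change itself turned from positive to negative.

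The sequences before the start sites of HEXIM1, MEPCE and HEXIM2 are shown because the first 2 genes fell together. The third is the paralog of HEXIM1, whose counts fell less, with the uncertainty from antisense RNAs given above. Each is the 250 bases before the start of the canonical transcript, from RefSeq on GRCh38.p14, read 5′ to 3′ on the strand of the gene, and all 3 genes are on the plus strand. Capitals mark matches, on either strand, to TATAAA (the TATA box), CCAAT (the CCAAT box), GGGCGG (the GC box) or CACGTG (the E-box), none of which overlap here. The windows are chr17:45148225-45148474 for HEXIM1, chr7:100429581-100429830 for MEPCE and chr17:45161625-45161874 for HEXIM2.
HEXIM1: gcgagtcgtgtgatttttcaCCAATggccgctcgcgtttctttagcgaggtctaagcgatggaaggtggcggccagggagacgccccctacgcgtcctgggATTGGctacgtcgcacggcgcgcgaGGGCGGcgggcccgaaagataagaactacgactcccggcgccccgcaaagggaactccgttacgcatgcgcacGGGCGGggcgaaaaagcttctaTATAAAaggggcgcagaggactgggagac
MEPCE: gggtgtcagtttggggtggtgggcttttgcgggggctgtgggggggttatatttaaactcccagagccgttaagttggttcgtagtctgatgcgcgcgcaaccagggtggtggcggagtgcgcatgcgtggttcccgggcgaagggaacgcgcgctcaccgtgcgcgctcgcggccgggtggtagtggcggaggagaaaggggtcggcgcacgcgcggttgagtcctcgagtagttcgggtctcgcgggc
HEXIM2: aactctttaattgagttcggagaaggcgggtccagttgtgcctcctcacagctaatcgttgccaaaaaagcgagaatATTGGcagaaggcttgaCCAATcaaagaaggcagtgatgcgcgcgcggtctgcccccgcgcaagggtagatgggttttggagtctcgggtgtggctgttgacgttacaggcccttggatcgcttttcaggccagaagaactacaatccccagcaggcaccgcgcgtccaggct

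The HEXIM1 window held TATAAA at -29 to -24 relative to the start, CCAAT at -230 to -226 and, on the opposite strand, at -149 to -145, and GGGCGG at -124 to -119 and at -51 to -46. In the HEXIM2 window CCAAT was found once on each strand, and in the MEPCE window none of the 4 motifs was found. Of 35116 RefSeq windows of 300 bases, 11.5% held TATAAA, 34.6% CCAAT, 45.0% GGGCGG and 7.26% CACGTG. Of the 9 members, HEXIM1 alone held TATAAA in the window of 300 bases at its canonical start, which is near the share of all windows. MEPCE alone held none of the 4 motifs there, and the share of all windows without any of them was not counted. BRD2 has 4 annotated starts among these windows, MEPCE has 3, and HEXIM2, CCNT1 and LARP7 have 2 each. Windows at the other starts were not searched, and which start H9 cells use was not analysed here. The window of CDK9, whose transcript rose, lies at chr9:127785784-127786033 and is shown for contrast, with 2 matches to GGGCGG and a GC content of 82.0%, against 62.4% for HEXIM1, 66.0% for MEPCE and a median of 58.0% over all windows.
CDK9: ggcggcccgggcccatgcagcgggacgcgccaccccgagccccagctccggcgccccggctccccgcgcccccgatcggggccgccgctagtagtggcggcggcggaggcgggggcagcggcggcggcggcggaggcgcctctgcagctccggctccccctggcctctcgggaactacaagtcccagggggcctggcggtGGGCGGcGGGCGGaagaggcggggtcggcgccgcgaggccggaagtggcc

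BRD2 (ENSG00000204256), a BET protein with a pair of bromodomains, had the highest CPM of the members, 305, 344 and 337 with DMSO and 217, 229 and 222 with AZD4573. Each treated library was below each control. BRD2 fell with a log2 fold change of -0.56 (standard error 0.0488, edgeR adjusted p = 1.9e-07), a 1.47-fold drop. BRD2 lies within the MHC region of chromosome 6 (32968594 to 32981505, plus strand), and 875 of its 8995 exon bases are shared with other genes, mostly on the opposite strand.

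BRD3 (ENSG00000169925), its paralog, was at 84.2, 87.5 and 85.2 CPM with DMSO and at 94.8, 96.4 and 93.3 CPM with AZD4573. The treated libraries were above the controls by a narrow margin. BRD3 had a log2 fold change of 0.15 (standard error 0.0424, edgeR adjusted p = 0.0067), but it was 0.04 (edgeR adjusted p = 0.38) with library size as the only scaling, 0.10 (edgeR adjusted p = 0.118) without a filter on low counts, and -0.59 (edgeR adjusted p = 1.5e-07) with the mitochondrial scaling. Relative to the median of the genes tested, BRD3 was at 0.12 with TMM, at -0.0089 without a filter and at 0.0014 with DESeq2. BRD3 lies on the minus strand of chromosome 9 (134030305 to 134068535) and shares 1283 of its 6885 exon bases with BRD3OS on the opposite strand. BRD3OS had 1691 to 1907 counts with DMSO and 833 to 1048 with AZD4573.

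**Figure D3:**
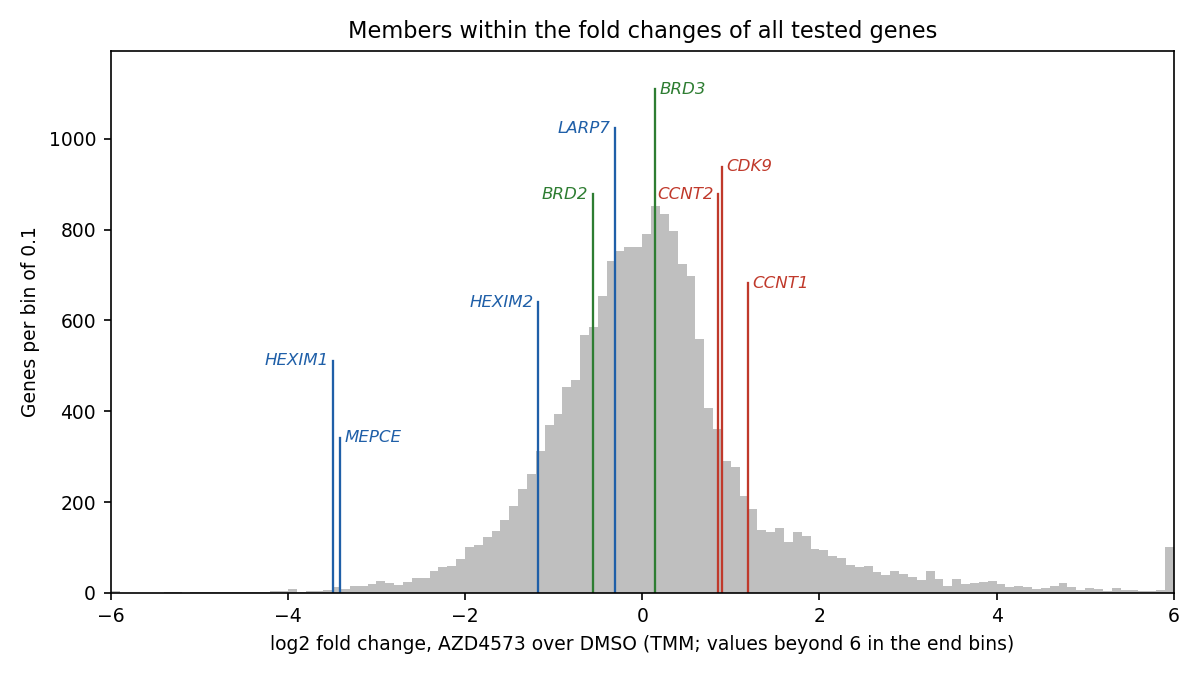
Histogram of the log2 fold changes (AZD4573 over DMSO, TMM) of the 17678 tested genes in bins of 0.1, with lines at the members, coloured red for P-TEFb, blue for the 7SK snRNP and green for BET genes. HEXIM1 (-3.49) and MEPCE (-3.41) lay in the thin left tail, and CDK9 (0.90), CCNT1 (1.19) and CCNT2 (0.85) on the right shoulder.

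Ratios of counts within a library do not depend on how libraries are scaled, and 7 of them were compared between groups by a 2-sided exact permutation test, for which 0.10 is the smallest p that 3 against 3 libraries allow. The summed counts of HEXIM1 and HEXIM2 per count of CDK9 were 0.88, 0.94 and 0.82 on the log2 scale with DMSO and -3.36, -3.35 and -3.33 with AZD4573. The transcripts of the inhibitors thus went from 1.84 counts per count of the kinase to 0.0983, an 18.8-fold difference. For MEPCE per CDK9, the log2 ratio was 1.01, 0.97 and 0.92 with DMSO and -3.15, -3.41 and -3.47 with AZD4573, a 19.8-fold difference. LARP7 per CDK9 went from 0.70, 0.56 and 0.48 to -0.53, -0.72 and -0.65, a 2.31-fold difference. In each of these ratios the groups were separated by far more than the spread within them (exact permutation p = 0.10, adjusted over the 7 ratios p = 0.117). The cyclins kept closer to their kinase. CCNT1 plus CCNT2 per CDK9 was at 0.70, 0.88 and 0.83 on the log2 scale with DMSO and at 0.86, 1.04 and 0.95 with AZD4573, so that the groups overlapped (difference 0.15, exact permutation p = 0.20, adjusted p = 0.20).

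Within each pair of paralogs, the 2 genes changed unequally. HEXIM1 to HEXIM2 went from a mean log2 ratio of 5.03 ± 0.138 with DMSO to 2.71 ± 0.168 with AZD4573 (SD, n = 3), which is from 32.7 to 6.55 counts of HEXIM1 per count of HEXIM2. The counts of HEXIM2 may hold reads of the antisense RNAs that cover most of its exon bases, so that the size of this shift is uncertain. CCNT1 to CCNT2 shifted in favour of CCNT1, from 0.18 ± 0.0151 to 0.52 ± 0.0434 on the log2 scale (SD, n = 3). BRD2 to BRD3 shifted in favour of BRD3, from 1.94 ± 0.0710 to 1.23 ± 0.0314 (SD, n = 3). The groups did not overlap in any of these 3 ratios, each at the smallest p allowed (exact permutation p = 0.10, adjusted over the 7 ratios p = 0.117).

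**Figure D4:**
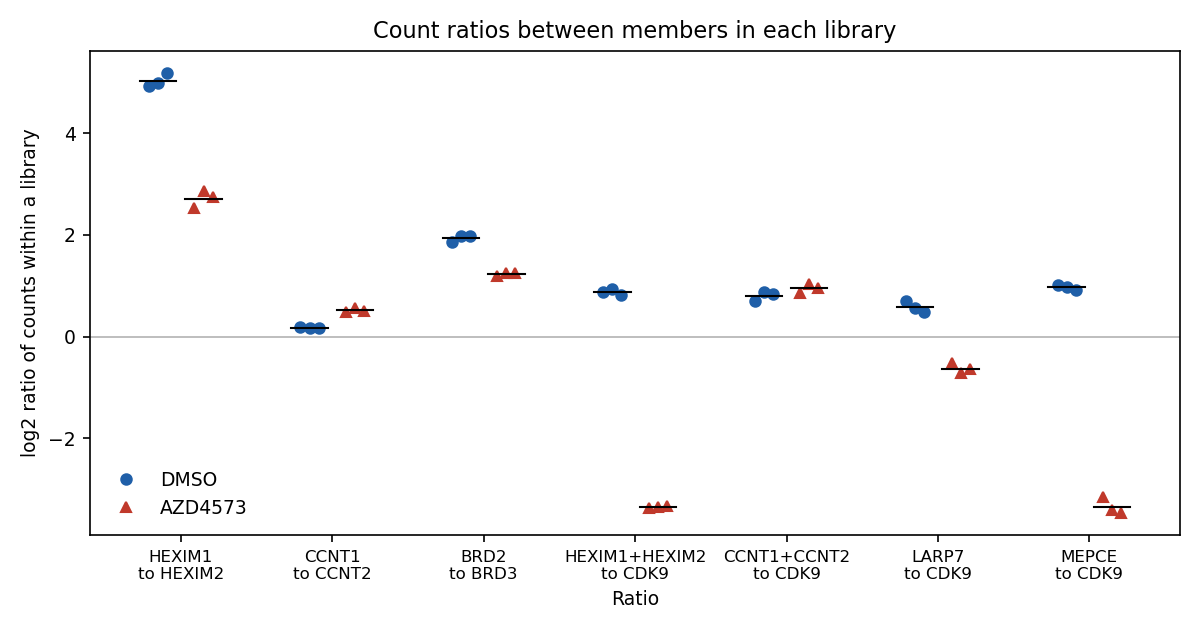
Log2 ratio of counts within each library for 7 pairs of members, with DMSO as blue circles, AZD4573 as red triangles and group means as black lines. The ratios of HEXIM1 plus HEXIM2 and of MEPCE to CDK9 dropped from about 0.9 to -3.3 on the log2 scale, and the groups overlapped for the cyclins to CDK9.

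Levels of different genes were compared per kilobase of merged exons, a scale that depends on the transcripts annotated. In DMSO, MEPCE (37.9 ± 0.334 CPM per kb, SD, n = 3) and BRD2 (mean 36.5, from 33.9 to 38.2) were highest and did not differ beyond their spread, followed by HEXIM1 (32.3 ± 1.13) and CDK9 (21.8 ± 0.516). BRD3 (12.4 ± 0.245) and LARP7 (12.1 ± 0.706) did not differ beyond their spread, and CCNT1 (8.25 ± 0.633), CCNT2 (5.92 ± 0.511) and HEXIM2 (1.79 ± 0.186) were lowest. After AZD4573 the order was CDK9 (40.6 ± 0.439 CPM per kb), BRD2 (24.8 ± 0.670), CCNT1 (18.8 ± 1.56), BRD3 (13.8 ± 0.226), CCNT2 (10.7 ± 0.599), LARP7 (9.73 ± 0.574), MEPCE (3.58 ± 0.388), HEXIM1 (2.87 ± 0.0996) and HEXIM2 (0.793 ± 0.0680), where CCNT2 and LARP7 overlapped. On this scale CDK9 thus passed from place 4 to place 1, and HEXIM1 from place 3 to place 8. With the canonical transcript length instead, CDK9 passed from place 5 to place 1 and HEXIM1 from place 4 to place 8. LARP7 was then at place 3 after AZD4573, where it was at place 6 with merged exons. Per kilobase of the canonical transcript, LARP7 stood at 46.4 CPM with DMSO, second to BRD2 at 66.3, since its merged exons are longer than its canonical transcript (8094 against 2107 bases).

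The genes most like CDK9 and HEXIM1 were sought among 9053 genes with a mean of at least 10 CPM, by the root mean square distance between log2 CPM profiles over the 6 libraries, each centred on its own mean. The profile nearest to HEXIM1 was that of MEPCE, at a distance of 0.13 on the log2 scale, followed by DOK1 (0.21), a docking protein of receptor signalling, and CHST10 (0.22), a sulfotransferase. Nearest to CDK9 were TBC1D17 (0.0224), ADA2 (0.0229) and XPO6 (0.0246), with log2 fold changes of 0.87, 0.90 and 0.91 against 0.90 for CDK9. The profiles span both groups, so that like fold changes follow from the way these genes were chosen.

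The other genes of the pathway were examined through fixed lists. Of the super elongation complex, which carries P-TEFb to paused polymerase, 8 of 10 genes were tested, of which 7 were lower and 0 higher at an edgeR adjusted p under 0.05, with a median log2 fold change of -0.30 (all genes 0.03). The largest falls were those of EAF2, an ELL-associated factor (log2 fold change -1.58), and AFF1, a scaffold of the complex (-1.12). ELL3 did not pass the test (-0.30, edgeR adjusted p = 0.62). AFF3 and MLLT3 had 0 counts in each of the 6 libraries and were not tested.

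Of the 6 subunits of NELF and DSIF, the factors that hold paused polymerase and are phosphorylated by CDK9, 3 were lower and 3 higher, with a median of -0.04. NELFA had the largest fall (log2 fold change -1.50, from 78.1 ± 3.14 to 27.7 ± 3.25 CPM, SD, n = 3), and SUPT5H, the DSIF subunit that CDK9 modifies, followed with -0.22. SUPT4H1 (0.40), NELFE (0.26) and NELFB (0.10, edgeR adjusted p = 0.027) were higher with TMM and turned to -0.34, -0.48 and -0.63 with the mitochondrial scaling, with NELFB named after its value was seen.

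Of 13 proteins that bind the freed 7SK RNA or act in the release of P-TEFb, 10 were lower, 0 higher and 3 not called, with a median of -0.26. NUFIP1, an RNA-binding partner of cyclin T1 (log2 fold change -1.60), and SRSF2, a splicing factor found at promoters with 7SK (-1.08), fell most. JMJD6 (log2 fold change 0.00), DDX21 (-0.04) and HNRNPA2B1 (-0.06) did not pass the test, with edgeR adjusted p values of 0.93, 0.38 and 0.21. Of 6 genes for CDK9 chaperones and the CDK-activating kinase, 4 were lower and 2 higher, with a median of -0.28. All 3 subunits of the activating kinase, which phosphorylates the T-loop of CDKs, were lower, with CDK7 at -1.79 and CCNH at -1.01. CDC37, the chaperone that hands kinases to HSP90, was higher at 0.49 with TMM and turned to -0.24 with the mitochondrial scaling, and HSP90AB1 was at 0.11 (edgeR adjusted p = 0.028) with TMM, a call lost without DMSO replicate 2, DMSO replicate 3 or AZD4573 replicate 2, with library size only, without a filter and with a replicate block, and at -0.63 with the mitochondrial scaling. Each list's share of lower genes is to be read against the 37.4% of all tested genes that were lower, and of higher genes against 37.3%. For protein-coding genes alone these shares were 44.3% and 35.8%. At a fold change of at least 1.5, 3 super elongation genes, 1 of NELF and DSIF and 5 release factors were lower (background 23.7%). So were 2 genes of the chaperones and activating kinase, and 0 were higher in each list (background 22.7%).

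**Figure D5:**
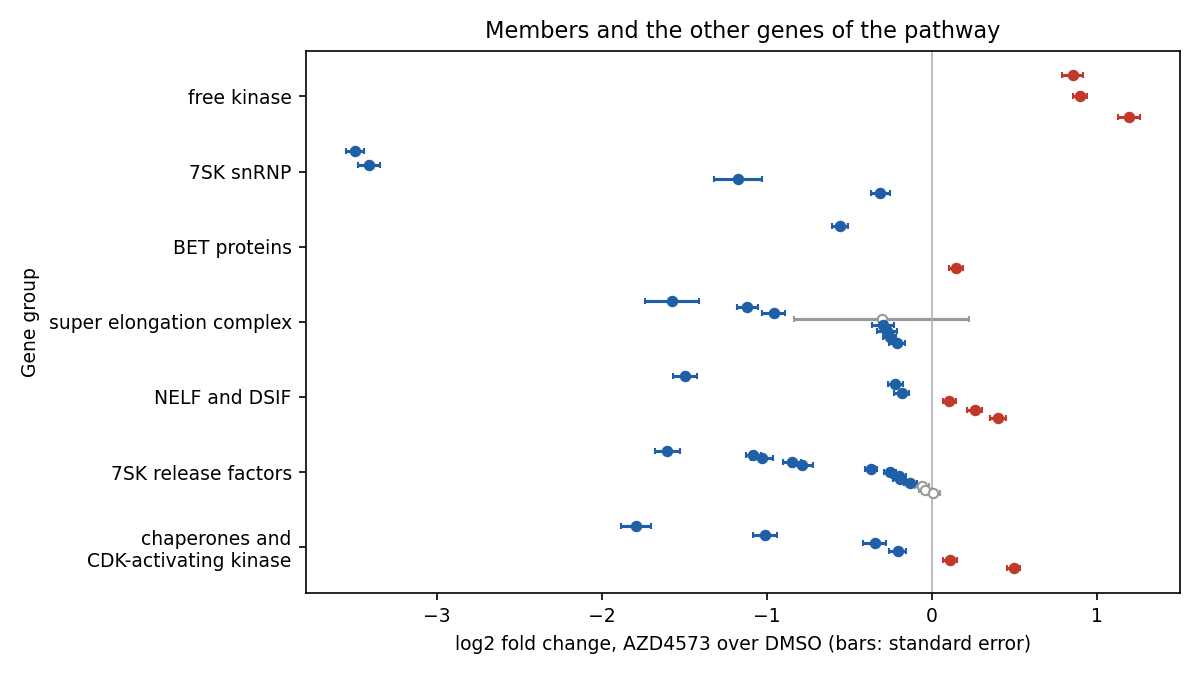
Log2 fold change (AZD4573 over DMSO, TMM) with its standard error for each tested gene of the members' groups and of the 4 fixed lists, in blue where lower, red where higher and open grey where the edgeR adjusted p was not under 0.05. The super elongation complex and the release factors held no higher gene (background 37.3% of all tested genes), and no gene of these lists fell as far as HEXIM1 and MEPCE. BRD3, SUPT4H1, NELFE, NELFB, CDC37 and HSP90AB1 turned lower with the mitochondrial scaling.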

How the data were processed

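Poly(A) RNA of H9 cells was sequenced in 6 libraries (3 DMSO, 3 AZD4573), each mapped to its group by its label. The authors trimmed reads with Cutadapt 2.3, aligned them to GRCh38 with STAR 2.7.8a and deposited expected counts per gene from RSEM 1.3.3 at default parameters, which do not use strand, in whole numbers without normalization. How they were rounded is not given in the sources used here. The dose is from the study's legends and the exposure time from the labels. The labels give a poly(A) selection kit and the supplemental methods an rRNA depletion kit.

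Of 61546 rows, 5 reporter sequences had no counts and were left out. Expected counts, rounded to whole numbers, were filtered by filterByExpr (minimum count 10), normalised by TMM and tested with glmQLFTest in edgeR 4.0.16 (R 4.3.3), without a replicate block, with Benjamini-Hochberg adjustment over 17678 genes. Within groups, no pair of libraries was a copy, as counts differed by more than sampling noise (chi-square 5.59 to 21.2 per degree of freedom). The procedure was also run on simulated counts. There only a small share of genes changed, equally up and down, so that run does not bear on the choice of scaling. Exon structure came from GENCODE release 44 (61369 of 61541 gene IDs matched) and promoter windows from RefSeq. No table of protein sequences was used here, so that the planned protein features are not reported.

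Named genes were the 9 members, the largest 2 rises and 2 falls past the threshold in each fixed list, RN7SK, and the 3 genes nearest to CDK9 and to HEXIM1. Members and lists were chosen with earlier results of these data known. Alternatives were RLE factors, library size only, mitochondrial mRNA scaling, other filters, DESeq2 1.42.0, a replicate block and each library left out. The canonical transcript length was added after seeing the data.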

Additional observations from a re-analysis of the deposited data

How the results depend on the processing

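The scaling changed the results most. With the 13 mitochondrial mRNAs as the scale, 6 members were lower and 2 higher in place of 5 and 4, and over all tested genes 11878 were lower and 2144 higher in place of 6606 and 6596. At a fold change of at least 1.5, a comparison added after seeing the data, 6 members were lower and 0 higher in place of 3 and 3, and 9433 of all genes lower and 1769 higher in place of 4191 and 4012. Under this scaling BRD3 turned to -0.59, SUPT4H1 to -0.34, NELFE to -0.48, CDC37 to -0.24 and HSP90AB1 to -0.63 on the log2 scale, as the whole distribution moved by the scaling itself, and CCNT2 (0.11) and RN7SK (0.38) were no longer called. BRD3 was also not called with library size only (0.04) or without a filter (0.10), and the cause of the latter was not tested. Of 351 values for 27 named genes under the alternatives, 336 kept both sign and call, 10 lost the call and 5 reversed.

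With each library left out in turn, 5 members were lower and 4 higher in each of the 6 fits (3 to 4 lower and 3 higher at a fold of at least 1.5), from 6367 to 6637 of all genes were lower and from 6241 to 6577 higher (4142 to 4337 and 3872 to 4119 at that fold). HEXIM1 ranged from -3.52 to -3.47, MEPCE from -3.50 to -3.36, CCNT1 from 1.12 to 1.25 and RN7SK from 0.81 to 1.56. The ratio of HEXIM1 plus HEXIM2 to CDK9 ranged from -4.26 to -4.20, and the 7 ratios kept their direction, also with 10 counts added.

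Pairing by replicate number was not borne out: a DMSO and an AZD4573 library sharing a number had deviations whose correlation was -0.0208, 0.0417 or 0.0316. In the fit with a replicate block, 5 members were lower and 4 higher, with 6524 of all genes lower and 6447 higher, and HSP90AB1 (0.11, edgeR adjusted p = 0.0716) was the only named gene whose call changed. HEXIM2 rested on 83 to 295 counts per library, the least of the members.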

Other observations

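HEXIM1 and MEPCE, on different chromosomes, were at nearly equal counts before and after treatment. Counts of HEXIM1 per count of MEPCE were 0.886, 0.951 and 0.910 with DMSO and 0.736, 0.916 and 0.957 with AZD4573, with AZD4573 replicate 1 the lowest and the groups overlapping. This ratio was chosen after the values were seen and was not tested.

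HEXIM1 is among 332 tested protein-coding genes with a single exon, whose median log2 fold change was -0.40, against -0.07 for all 13423 protein-coding genes tested. Of those 332 genes, 12 had a log2 fold change of -3 or lower, as did 94 of all 13423. Short genes stood on both sides among the members, since CDK9 spans 5114 bases and rose whereas MEPCE spans 5805 bases and fell, and the 2669 protein-coding genes that span less than 10 kb had a median of 0.06, against -0.10 for the 10754 longer genes. Of the 2669 short genes, however, 46 had a log2 fold change of -3 or lower, HEXIM1 and MEPCE among them, against 48 of the 10754 longer genes. The gene classes and the cut at -3 were not in the plan, and no difference between classes was tested.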
